A study of Homo sapiens with 18 samples.

Results

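A549 is a line from a human lung carcinoma, cultured here with its upper side to the air. In 2 of 9 experiments the mean signal of 5 cell cycle genes was higher in both chambers than on any array of the other 7. These were the replicate 2 experiments of the letters B and C (B2 and C2, 4 of 18 arrays), and they are described here against the other 4 experiments of these letters (B1, B3, C1 and C3, 8 arrays). In each experiment 1 culture stood for 72 h in the exposure chamber and 1 in the reference chamber, which held 0 ppm formaldehyde. The exposure chamber held 0.1 ppm formaldehyde in the B experiments and 0.5 ppm in the C experiments, so B2 and C2 hold 1 array of each dose and 2 of the reference chamber, and the 8 arrays hold 2 of each dose and 4 of the reference chamber. The experiments of letter A (A1, A2 and A3), with 0 ppm in both chambers, are given beside them. Cultures had been grown to a dense layer on porous inserts before they were lifted to air, and a single tumour line lacks the other cells of the lung.

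A dividing cell first loads the MCM helicase onto replication origins in G1, then copies its DNA in S phase under E2F transcription factors and cyclin E with CDK2, and divides its chromosomes in M phase under CDK1 and cyclin B. The genes of S phase and of mitosis rise and fall with the number of cells in cycle, and resting cells hold them down through the RB family and the DREAM complex. Mitotic promoters often carry a cell cycle homology region (CHR) and CCAAT boxes, and S phase promoters E2F sites.

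Signals are the deposited MAS5 intensities on the log2 scale, so a difference of 1 is a doubling of the intensity. Each gene is represented by its brightest probeset. The 12392 of 19775 genes with a mean log2 signal above 4.78, the median of all probesets, were compared. Where values of B2 or C2 stand in pairs, the exposure chamber comes first, and where 3 values are given for the 8 other arrays, they are the lowest, the median and the highest. B2 and C2 were chosen by the measured signal of cell cycle genes in both chambers together, so that every difference between B2 and C2 and the other experiments is a description and carries no test. The difference between the chambers within an experiment was not used by the rule, and it was tested.

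The mean log2 signal of the 5 markers of the rule, MKI67, CDK1, CCNE2, BUB1B and MCM2, was 10.31 and 10.14 in B2 and 10.06 and 9.89 in C2. On the 8 other arrays of letters B and C it lay between 8.84 and 9.79, with a median of 9.35. The lowest array inside the choice, the reference chamber of C2, stood at 9.89, close to the highest outside it, the exposure chamber of A1, at 9.88. Taken by experiment, B2 had 10.22 and C2 9.98, against 9.68 in A1, the next experiment, and 9.41 in B3, the next of letters B and C.

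All 5 markers were higher on average in B2 and C2, but they did not move as 1 group. MCM2, a subunit of the replicative helicase (chromosome 3, 127598411 to 127622436 in GRCh38.p14, plus strand), had log2 signals of 8.39 and 8.63 in B2 and 8.53 and 8.55 in C2, against 6.76, 7.42 and 8.23 on the 8 arrays. It was the 1 marker whose groups did not overlap, with a mean of 8.52 ± 0.10 (SD, n = 4) in B2 and C2 and 7.48 ± 0.45 (SD, n = 8) elsewhere, or 2.06-fold. BUB1B, a kinase of the spindle checkpoint (chromosome 15, 40161069 to 40221123), had 10.47 and 10.53 in B2 and 10.63 and 10.33 in C2, against 8.57, 9.73 and 10.43, or 1.83-fold. Its groups touched only at the exposure chamber of B1. MKI67, which coats mitotic chromosomes and marks dividing cells (chromosome 10, 128096659 to 128126423), had 8.79 and 8.87 in B2 and 8.88 and 9.59 in C2, against 7.05, 7.82 and 9.51, or 2.15-fold. The 9.51 belonged to the reference chamber of B1, where CDK1, CCNE2 and BUB1B were at their lowest of the 8 arrays.

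CDK1 and CCNE2 depended on the letter. CDK1, the kinase that starts mitosis (chromosome 10, 60778331 to 60794852), had 13.28 and 12.88 in B2 and 12.66 and 12.35 in C2, against 11.4, 12.84 and 12.96 on the 8 arrays. B2 was 0.66 above B1 and B3, C2 was 0.33 below C1 and C3 (within-letter difference -0.33), and without B1 the difference over both letters was -0.06. CCNE2, a cyclin E of the G1/S transition, had 10.62 and 9.77 in B2 and 9.59 and 8.65 in C2, against 6.83, 9.25 and 9.83, with differences of 1.46 within B and -0.31 within C. By mean difference within a letter, the label of high proliferation thus rested on MCM2, BUB1B and MKI67 in both letters and on all 5 markers in B2 alone. The lowest CDK1 and CCNE2 of B1 and B3, 11.4 and 6.83, stood in the reference chamber of B1. The exposure chamber of B2 lay above all arrays of B1 and B3 in both genes. Its reference chamber lay below that of B3, at 12.96 and 9.83. In MKI67 both B2 arrays lay below the reference chamber of B1, at 9.51. Proliferation itself was not measured, and in bulk cultures fewer cells of a kind and less RNA per cell cannot be told apart.

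**Figure D1:**
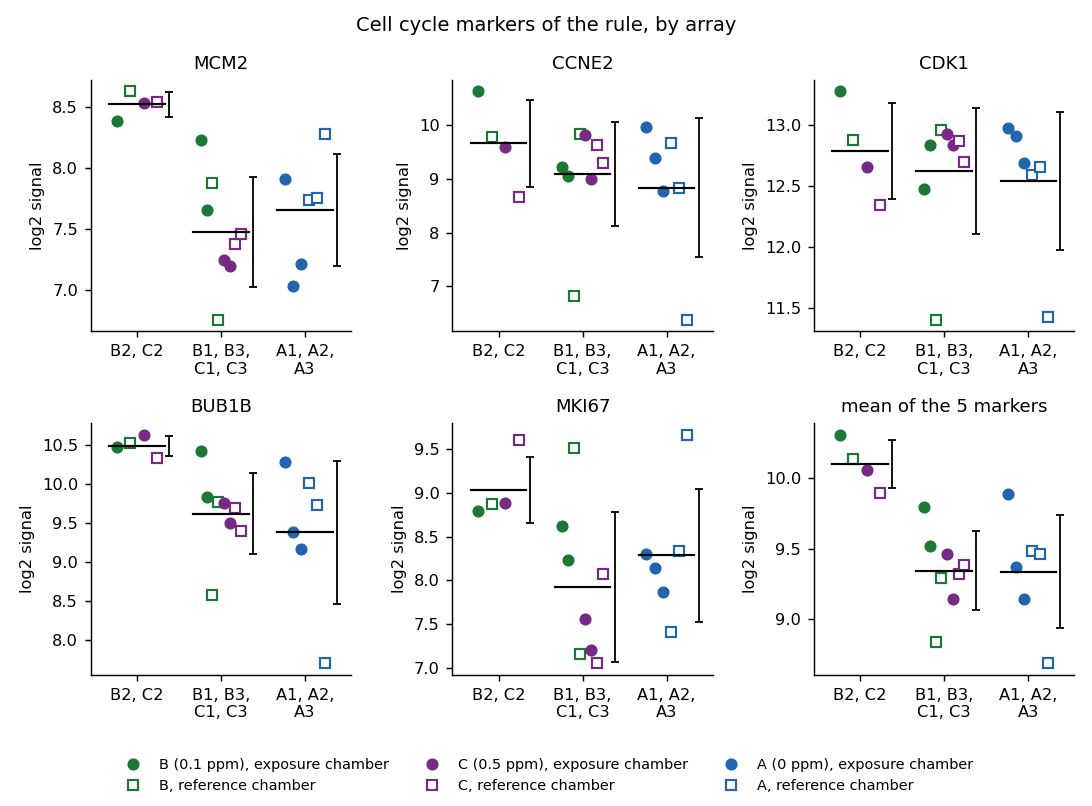
Log2 signal (vertical axes) of the 5 markers and of their mean on each array of B2 and C2, of the other 4 B and C experiments and of the 3 A experiments (horizontal axes); filled circles are exposure chambers, open squares reference chambers, lines are means and bars 1 SD. MCM2 separates the 4 arrays (8.39 to 8.63) from the 8 (6.76 to 8.23), while CDK1 and CCNE2 overlap.

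The promoters of the 4 markers whose sequence is shown carry the motifs by which such genes are usually sorted into S phase and mitosis. The sequences run from 250 bases before to 50 bases after the RefSeq start in GRCh38.p14, with matches in capitals. Words searched on both strands were TTTGAA (the CHR core), CCAAT, and for E2F the words TTTCCCGC, TTTGGCGC, TTTCGCGC and TTTGCCGC. MCM2, chr3:127598161-127598460, plus strand, has an E2F word on each strand, which overlap, and neither of the other motifs.
MCM2: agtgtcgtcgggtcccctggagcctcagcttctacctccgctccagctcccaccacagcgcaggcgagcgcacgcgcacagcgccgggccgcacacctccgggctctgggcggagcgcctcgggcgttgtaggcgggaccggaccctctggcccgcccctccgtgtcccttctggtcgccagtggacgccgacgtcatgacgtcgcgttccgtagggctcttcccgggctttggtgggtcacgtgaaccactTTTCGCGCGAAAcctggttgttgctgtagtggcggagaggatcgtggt
CDK1, chr10:60778081-60778380, plus strand, has all 3 kinds, the CHR core at -161 to -156 from the start, CCAAT at -150 to -146 and an E2F word at 20 to 27.
CDK1: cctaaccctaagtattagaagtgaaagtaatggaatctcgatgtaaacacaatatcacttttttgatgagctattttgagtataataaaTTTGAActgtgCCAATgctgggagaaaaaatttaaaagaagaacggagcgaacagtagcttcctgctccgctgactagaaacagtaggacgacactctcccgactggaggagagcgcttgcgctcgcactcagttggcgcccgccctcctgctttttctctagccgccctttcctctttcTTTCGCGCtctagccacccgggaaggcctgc
MKI67, chr10:128126374-128126673, minus strand, has 2 CHR cores and 2 CCAAT boxes on the other strand, 1 of which overlaps a CHR core.
MKI67: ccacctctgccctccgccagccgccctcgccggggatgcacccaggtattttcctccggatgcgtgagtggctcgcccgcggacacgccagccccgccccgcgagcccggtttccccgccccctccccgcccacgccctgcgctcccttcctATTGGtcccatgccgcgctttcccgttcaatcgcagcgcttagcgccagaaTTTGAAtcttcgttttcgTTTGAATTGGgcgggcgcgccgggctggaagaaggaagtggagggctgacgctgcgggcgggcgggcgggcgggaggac
BUB1B, chr15:40160819-40161118, plus strand, has 1 CHR core at -23 to -18.
BUB1B: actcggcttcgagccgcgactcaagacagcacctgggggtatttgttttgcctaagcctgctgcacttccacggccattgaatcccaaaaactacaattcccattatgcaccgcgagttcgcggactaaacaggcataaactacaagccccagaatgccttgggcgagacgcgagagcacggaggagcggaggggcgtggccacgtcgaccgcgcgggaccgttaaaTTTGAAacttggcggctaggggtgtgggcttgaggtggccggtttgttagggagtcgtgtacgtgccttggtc
Of the 184 cell cycle genes of the lists below with a promoter, 32.1% held TTTGAA, 59.8% CCAAT and 22.3% an E2F word, against 15.4%, 35.7% and 3.33% of all 27305 promoters. A match is a string of letters and not a binding site.

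Over all genes compared, 262 had all 4 arrays of B2 and C2 above all 8 others with a mean difference of at least 0.5, which is 2.11% of 12392, and 184 (1.48%) had all 4 below. Such genes are called apart, and their counts in the lists below stand beside these shares. In a short list a count of 0 is close to both shares and carries no weight. After quantile normalization, which gives every array the same distribution of signals, 192 genes were above and 235 below. These shares belong to the contrast that the rule used, and 52.0% of genes had a positive difference of any size. The median difference of all genes was 0.02. Of the 262 genes, 34 were in the cell cycle lists, and 228 were not. Fewer arrays that must not overlap can raise such counts. There were 477 and 369 genes without the reference chamber of C2, 467 and 415 without the exposure chamber of B1, and 403 above without the reference chamber of B1. Against the 3 comparison arrays whose actin 3′ to 5′ difference was no larger than in B2 and C2, there were 396 above and 286 below, but only 127 of the 262 and 127 of the 184 were among them, so that more than 50% of the genes apart above lost the call. The difference was smaller there by more than 1.5 times for 108 of the 262 and 46 of the 184 genes, and its median over them was 0.49 and -0.66, against 0.72 and -0.85 with all 8 arrays. Among the genes described below this held for ALDH1A3 (0.73 there, 1.13 with all 8 arrays), KLF2 (0.52 and 1.07), GINS4 (0.55 and 0.90), PSAT1 (0.52 and 0.87), STARD4 (0.48 and 0.83), FMO4 (-0.75 and -1.21) and B2M (-0.32 and -0.58), and for E2F7, E2F8, POLD3, NR4A2, PRDM1 and TCN1. A gene can pass the signal filter only through the arrays where it is high, which held for 2 of the 262 (mean of the 8 arrays below 4.78) and 16 of the 184 (mean of B2 and C2 below 4.78).

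The arrays themselves differed. The 3′ to 5′ difference of the actin control probesets, which grows as RNA or its copies shorten, was 4.24 to 5.79 (median 5.04) in B2 and C2 and 5.23 to 8.67 (median 6.03) on the 8 arrays, where the 8.67 was the reference chamber of B1. That array alone lay at 98.19 on the first principal component of the 12 arrays (44.2% of the variance). The second component (19.8%) held the 4 arrays between 20.61 and 31.12, both B1 arrays at 8.76 and 8.96, and the other 6 between -27.31 and -12.86. The median signal of all probesets was 28.1 to 31.1 in B2 and C2 and 26.7 to 32.8 on the 8 arrays. The part of RNA length in the differences was not tested. Against the 3 arrays of like actin difference, which are both C1 arrays and the exposure chamber of B1, the median difference of the cell cycle lists was 0.40, and it was 0.44 against all 8. The mean difference of the 5 markers was 0.57 there and 0.75 against all 8. MCM2 had 0.90 there (1.05 against all 8), BUB1B 0.53 (0.87), CCNE2 0.11 (0.58), CDK1 0.03 (0.16) and MKI67 1.29 (1.11). Of the lists described below, the G1/S median was 0.37 there (0.55 against all 8) and that of condensin and cohesin 0.22 (0.44). Origin licensing had 0.59 (0.59) and DNA synthesis 0.41 (0.38).

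Of 227 genes in 10 cell cycle lists, 219 had a probeset of their own and 216 passed the signal filter. Of these, 190 were higher in B2 and C2 and 26 lower, with a median difference of 0.44. None of the 26 counted as apart on the lower side. Without B2 the median was 0.29 and without C2 0.56. Within B it was 0.51 and within C 0.34.

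Origin licensing genes showed the largest median of the 10 lists, 0.59 over 26 genes, of which 23 were higher and 7 counted as apart (MCM2, MCM3, MCM6, MCM10, GINS1, GINS3 and GINS4). MCM10, which binds the helicase as origins fire, had 10.10 and 9.90 in B2 and 9.28 and 9.20 in C2, against 7.27, 7.85 and 8.90 on the 8 arrays. The 3.14-fold difference was the largest of any cell cycle gene, and the 8.90 stood in the exposure chamber of B1. MCM3, another helicase subunit, had 9.88 and 9.51 in B2 and 9.73 and 9.62 in C2, against 8.25, 8.60 and 9.17, or 2.07-fold, with the same size in both letters (1.04 and 1.06). ORC1, the subunit of the origin recognition complex that is made in late G1, varied between 4.44 and 6.55 in B2 and C2 and between 1.77 and 5.49 elsewhere, where its mean lay below the filter. The 3 genes of the list that were lower were ORC3, ORC4 and ORC5, other subunits of that complex, with differences of -0.60, -0.57 and -0.44.

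DNA synthesis genes had a median of 0.38 over 28 genes, of which 25 were higher, and POLD3, a subunit of DNA polymerase delta, was the 1 gene apart (9.97 to 10.17 in B2 and C2, against 8.42 to 9.71, a difference of 0.74 and of 0.48 against the arrays of like actin difference). TK1, the thymidine kinase of S phase, had 9.61 and 9.75 in B2 and 9.56 and 9.70 in C2, against 8.60, 8.77 and 9.79. It was overlapped only by the reference chamber of B1. RRM2, the small subunit of ribonucleotide reductase and often the brightest S phase gene on arrays, did not separate, with 13.15 to 13.48 in B2 and C2 and 12.55 to 13.92 elsewhere.

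All 18 G1/S genes were higher, with a median of 0.55, and 4 were apart. E2F8 and E2F7, the repressors of the E2F family that accumulate in S phase, had the largest differences. E2F8 had 6.92 and 6.54 in B2 and 6.16 and 5.71 in C2, against 3.93, 4.54 and 5.66 on the 8 arrays, whose mean lay below the filter, so that its call carries no weight. E2F7 had 9.44 and 9.41 in B2 and 9.06 and 8.79 in C2, against 5.81, 8.02 and 8.61, or a difference of 1.37, which was 0.81 against the arrays of like actin difference. CDK2, the partner of cyclin E, was 2.29-fold higher (10.01 and 9.96 in B2, 9.56 and 9.41 in C2, against 6.71 to 9.05). CCNE1, the other cyclin E, was apart where CCNE2 was not, at 11.25 and 11.26 in B2 and 11.18 and 11.30 in C2, against 10.23 to 11.03. MYC, a growth factor-induced transcription factor, was 2.46-fold higher, with 8.30 to 8.94 in B2 and C2. Its lowest value elsewhere, 4.17, stood in the reference chamber of B1 against a median of 7.47, and without B1 the difference was 0.98 and not 1.30.

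In G2/M all 25 genes were higher, with a median of 0.48, and 2 were apart. PLK1, the kinase of mitotic entry, had 6.89 and 7.15 in B2 and 7.13 and 7.28 in C2, against 5.39, 6.02 and 6.75, or 2.10-fold. MELK, a mitotic kinase, had a difference of 0.62. MYBL2, the MYB factor that turns DREAM into an activator, had the largest difference of the list, 1.34, but its highest value elsewhere, 6.48, lay within the range of 5.78 to 6.73 in B2 and C2. FOXM1, the activator of late cell cycle genes, likewise had 9.48 to 9.82 in B2 and C2, with a median of 8.75 and a highest value of 10.57 on the 8 arrays.

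Mitotic genes were less uniform, and their size differed between the letters. Of 28 spindle and cytokinesis genes 26 were higher (median 0.50), and 7 were apart, RACGAP1, ARHGAP11A, KIF2C, PRC1, KIF4A, TACC3 and TPX2. TPX2, which activates Aurora A on the spindle, had 9.52 and 9.46 in B2 and 9.63 and 9.37 in C2, against 8.08, 8.41 and 9.01. Kinetochore genes had a median of 0.59 within B and 0.04 within C, with 24 of 28 higher overall and SKA1, CENPA and BUB1 apart. SKA1, which couples kinetochores to microtubules, had 7.78 and 7.36 in B2 and 6.98 and 6.67 in C2, against 5.57 to 6.28. NDC80 and ASPM, a kinetochore and a spindle pole protein, had differences of -0.29 and -0.34.

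Of the genes of mitotic exit, UBE2C, the ubiquitin-conjugating enzyme of the anaphase promoting complex, had 9.40 and 9.39 in B2 and 8.76 and 8.93 in C2, against 7.18, 7.86 and 8.30, or 2.42-fold. ESPL1, the protease separase, was the other gene apart, at 1.71-fold, while the subunits of the complex itself lay between -0.53 (ANAPC4) and 0.18 (CDC23). In the condensin and cohesin list NCAPH (2.08-fold) and NCAPG2 were apart, both subunits of condensins. STAG1, STAG2 and SMC3, of the cohesin ring, had differences of -0.10, -0.23 and -0.03. Of the chromatin assembly genes 5 of 16 were apart, ASF1B (2.22-fold), CHAF1B (2.04-fold), DNMT1, EZH2 and SLBP, which chaperone histones, copy DNA methylation, methylate histone H3 and bind histone mRNA. Fork and repair genes had the smallest median of the 10 lists, 0.25 over 18 genes, with TIMELESS, of the fork protection complex, apart at 1.68-fold.

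**Figure D2:**
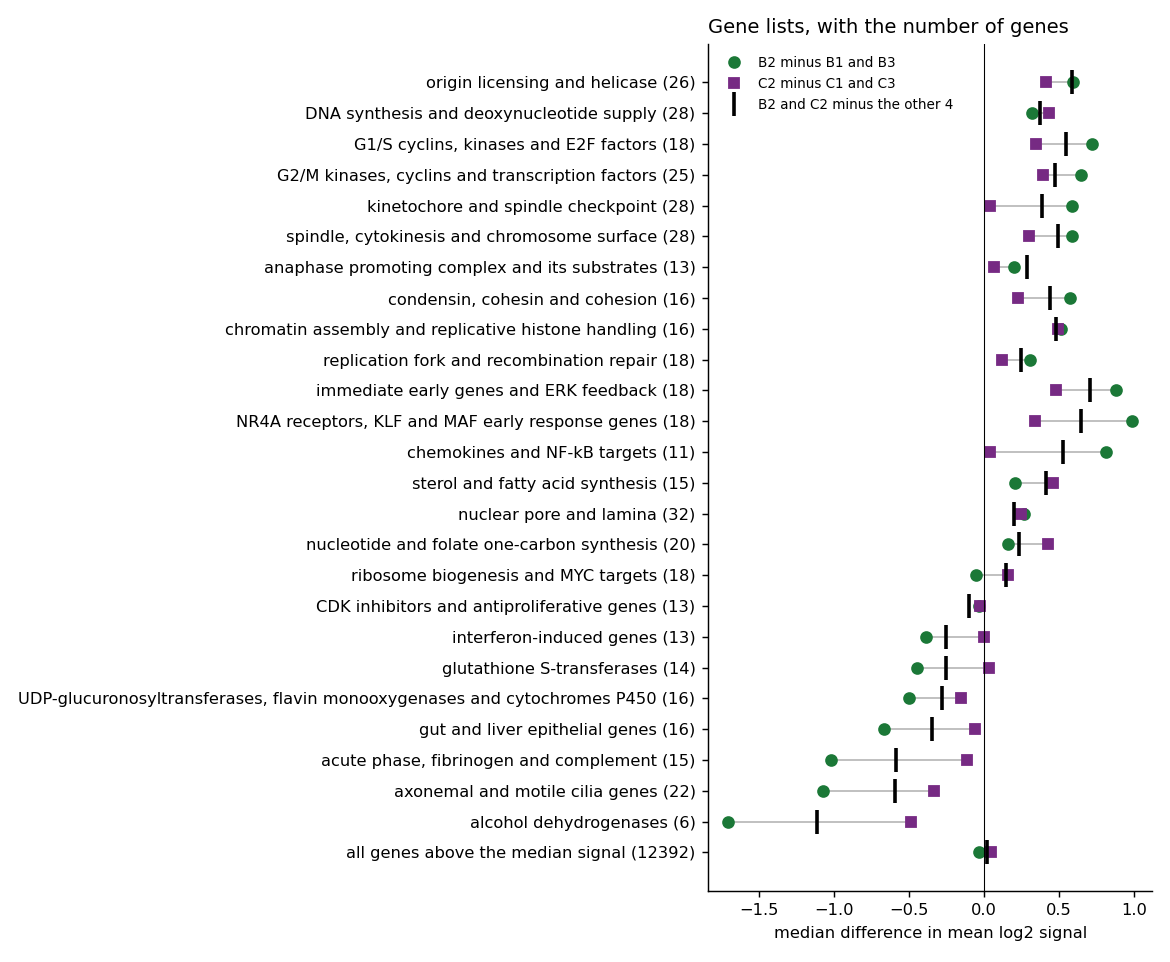
Median over the genes of each list of the difference in mean log2 signal (horizontal axis), within B (circles), within C (squares) and over both (bars), for 25 lists and for all genes, with the number of genes in brackets. The 10 cell cycle lists lie at or above 0.04 in both letters. The lists of alcohol dehydrogenases, of axonemal genes and of gut and liver genes were drawn up after the values were seen. In them 1 of 6, 6 of 22 and 1 of 16 genes passed the signal filter only through the arrays where they were higher. The medians of these lists carry no weight.

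Genes that oppose the cycle did not mirror this in size. Of 13 CDK inhibitors and antiproliferative genes 5 were higher and 8 lower, with a median of -0.10, or -0.20 without B1. The mean of the list was 10.93 and 10.96 in B2 and 11.11 and 11.01 in C2. On the 8 arrays its median was 11.10, and its lowest value, 10.68, stood in the reference chamber of B1. The count of 0 apart says little beside the 2.11% above and 1.48% below of all genes compared. CDKN1A (p21) had 9.71 to 10.04 in B2 and C2, against 9.71, 10.16 and 11.49, and CDKN1B (p27) had a difference of -0.10. CDKN1C (p57) was at 6.35 and 6.71 in B2 but at 7.83 and 7.68 in C2, against 7.61 to 8.52 elsewhere. Of 17 p53 targets 8 were higher, with a median of -0.01, and GDF15, a stress-induced cytokine that other pathways also induce, was the 1 gene apart. It had 10.35 and 9.74 in B2 and 9.82 and 9.98 in C2, against 8.04, 8.89 and 9.17, or 2.54-fold. Nucleotide and folate genes were higher in 19 of 20 cases by a median of 0.24 (PSAT1, of serine synthesis, apart at 1.83-fold). Ribosome biogenesis genes had a median of 0.15 (-0.05 within B), and ODC1, the first enzyme of polyamine synthesis, was the 1 gene apart. Sterol and fatty acid genes had a median of 0.41 over 15 genes with SQLE and STARD4 apart, at 1.56-fold and 1.78-fold.

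Against all 8 arrays immediate early genes had a larger median than any cell cycle list. These are transcription factors and phosphatases switched on within minutes of growth factor signals through ERK. Of 18 genes 17 were higher, by a median of 0.71 (0.88 within B, 0.48 within C), and DUSP5, FOS, EGR1 and PHLDA1 were apart. Against the arrays of like actin difference the median was 0.49, below the 0.59 of origin licensing. Within C the chromatin assembly genes had 0.49. EGR1, a zinc finger factor, had 12.48 and 12.47 in B2 and 11.69 and 11.91 in C2, against 10.27, 10.52 and 11.66 on the 8 arrays, or 2.62-fold. Its difference was 1.39 in each letter. FOS had 8.59 and 8.49 in B2 and 7.72 and 7.79 in C2, against 4.96, 6.73 and 7.56, or 2.82-fold. DUSP5, the nuclear phosphatase that removes active ERK, had 9.81 and 9.72 in B2 and 9.27 and 9.08 in C2, against 6.47 to 8.53 elsewhere, or 3.17-fold. In EGR1, FOS and DUSP5 the chambers of B2 and of C2 lay close together, and both B2 arrays lay above both C2 arrays.

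A further early response list, drawn up after the values were seen, went the same way. Of NR4A, KLF and MAF genes 18 of 18 were higher, by a median of 0.65 (0.99 within B, 0.34 within C). Against the arrays of like actin difference that median was 0.33. NR4A2, an orphan nuclear receptor, had 9.35 and 9.03 in B2 and 8.61 and 8.51 in C2, against 5.09, 7.39 and 8.43. NR4A3, KLF2 and MAFF were also apart. ATF3, a stress factor induced by many signals, was at 10.55 and 10.49 in B2 and 9.27 and 9.35 in C2, against 7.93, 8.21 and 9.24, or 2.90-fold, while the other 15 genes of its stress response list had 0 apart and the list a median of 0.11. Chemokines and NF-kB targets were split by letter, with a median of 0.81 within B and 0.04 within C, and 0.20 against the arrays of like actin difference.

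Genes of the cell cycle lists were left out before the other genes were ranked by their likeness to the markers. Over the 12 arrays the mean of the 5 markers had Pearson correlations of 0.98 with PHLDA1, 0.97 with PLAUR, the urokinase receptor, 0.97 with AUNIP, an Aurora A and DNA repair protein, 0.97 with DIAPH3, a formin, and 0.97 with CCDC134. DUSP5, GPAT3 and ZNF367 followed at 0.96. All of these genes had their lowest value of the 12 arrays in the reference chamber of B1. That array also had the lowest mean of the markers, 8.84, and the actin 3′ to 5′ difference of 8.67. How far the ranking rests on it was not tested. The 12 arrays share 2 chambers per experiment and the same contrast that chose B2 and C2, and the values are descriptions. PHLDA1 had 11.78 and 11.60 in B2 and 11.70 and 11.43 in C2, against 10.24, 10.93 and 11.41, and in A1, the next experiment by the markers, 11.30 and 10.90.

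Among genes apart that were in none of the lists fixed with the design, the largest positive differences were those of PRDM1 (1.68), NR4A2 (1.58), VAV2 and EMP1 (1.35 each) and AUNIP (1.31). PRDM1, a zinc finger repressor known from B cells and epithelium, had 6.92 and 6.83 in B2 and 6.55 and 7.06 in C2, against 2.99, 5.71 and 6.43. EMP1, an epithelial membrane protein, had 9.83 and 9.53 in B2 and 9.33 and 9.18 in C2, against 6.54, 8.23 and 9.05. The lowest values stood in the exposure chamber of C3 for PRDM1 and in the reference chamber of B1 for EMP1, and without B1 the differences were 1.39 and 1.22. Against the arrays of like actin difference PRDM1 had 0.87 and NR4A2 0.69. Nuclear pore and lamina genes, also listed after the values were seen, had a median of 0.20 over 32 genes, and NUP93, NUP98, NUP153 and LMNB2 were apart. LMNB1, lamin B1, whose loss marks arrested cells, had 11.39 and 11.11 in B2 and 10.80 and 10.32 in C2, against 8.67, 9.71 and 10.39.

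On the lower side the differences were larger. With a minimum difference of 1 in place of 0.5, 41 genes were apart above and 72 below. DAPL1, a small protein of differentiating epithelium, had the largest difference of all genes apart, at 6.31 and 7.26 in B2 and 7.62 and 8.39 in C2, against 8.74, 10.11 and 10.70, a ratio of 0.16. TCN1, the vitamin B12 carrier of secretions, had 6.86 and 6.71 in B2 and 6.33 and 6.05 in C2, against 7.37, 8.29 and 9.35. CLRN3, of the clarin membrane proteins, had 7.12 and 7.53 in B2 and 8.20 and 7.71 in C2, against 8.80, 9.57 and 9.81. Against the arrays of like actin difference TCN1 had -1.14, and with all 8 arrays -1.82. Being apart, each of the 3 genes was lower in both letters by definition, DAPL1 by -3.06 within B and -2.20 within C.

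Alcohol dehydrogenases, which oxidise ethanol and retinol and were listed after the values were seen, were lower in 6 of 6 genes. Of these 6, 1 passed the filter only through the arrays where it was higher, so neither the count nor the median carries weight. The median difference was -1.11 (-1.71 within B, -0.48 within C, and -0.74 against the arrays of like actin difference). ADH1B had 6.37 and 7.43 in B2 and 9.02 and 8.83 in C2, against 9.45, 9.83 and 10.76, a ratio of 0.25. ADH1C had 11.14 and 11.63 in B2 and 12.17 and 12.44 in C2, against 12.75, 13.30 and 13.49, a ratio of 0.39. ADH1A, ADH1B and ADH1C are near-identical copies, so their probesets may share signal. ADH5, the class III enzyme that oxidises the glutathione adduct of formaldehyde, overlapped (12.55 to 12.79 in B2 and C2, 12.62 to 13.31 elsewhere), and ESD, the esterase of the next step, had -0.32. ALDH1A3, a retinaldehyde dehydrogenase, went the other way and was apart, with 9.22 and 9.08 in B2 and 8.56 and 8.78 in C2, against 6.51, 8.03 and 8.33. The full list of formaldehyde oxidation had 4 of 11 genes higher and a median of -0.11, which turned to 0.05 after quantile normalization.

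Other enzymes of drug metabolism, in lists also drawn up after the values were seen, followed in part. Of 16 glucuronosyltransferases, flavin monooxygenases and cytochromes P450 5 were apart below (UGT2B15, UGT2B4, UGT2B28, FMO4 and CYP3A5), with a list median of -0.28. CYP3A5 had 10.12 and 10.02 in B2 and 10.99 and 10.86 in C2, against 11.15, 11.52 and 12.17. GSTA1 and GSTA4, of the alpha class of glutathione S-transferases, were apart below. GSTA1 had 10.73 and 11.14 in B2 and 11.96 and 12.21 in C2, against 12.28, 12.87 and 13.21. Of the 14 glutathione S-transferases 10 were lower and 4 higher, with a median of -0.25 (-0.45 within B, 0.03 within C). Against the arrays of like actin difference it was -0.10. The UGT2B and GSTA genes are families of close copies, and their probesets may share signal. NRF2 targets, which are constitutively high in A549, had a median of -0.02 (0.14 after quantile normalization) and 0 of 17 apart.

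Of 7 measured secretoglobins, listed after the values were seen, 2 passed the signal filter, and these and CFI were apart below. The secretoglobins below the filter went both ways, from -2.05 in SCGB3A2 to 2.16 in SCGB1A1, at signals too low to read. SCGB2A1, a secretoglobin, had 9.47 and 9.41 in B2 and 9.35 and 9.44 in C2, against 10.10, 10.81 and 11.22, a ratio of 0.40. SCGB1D2, the other secretoglobin that passed the signal filter, had 4.24 and 5.06 in B2 and 4.76 and 5.27 in C2, against 5.75, 6.29 and 6.86. CFI, the complement protease factor I, had 9.47 and 9.38 in B2 and 9.53 and 9.87 in C2, against 10.23, 10.76 and 11.21, a ratio of 0.44. The range over the 4 arrays was narrowest in SCGB2A1, whose mean was 9.42 ± 0.05 in B2 and C2 (SD, n = 4) and 10.74 ± 0.36 elsewhere (SD, n = 8).

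CFI belonged to the acute phase and complement list, in which 14 of 15 genes were lower, by a median of -0.59. That median was -1.02 within B, -0.11 within C and -0.32 against the arrays of like actin difference. FGG, the fibrinogen gamma chain, had 12.41 and 12.48 in B2 but 13.32 and 13.56 in C2, against 13.26, 13.60 and 14.16. FGA and FGB followed B2 in the same way, with within-letter differences of -1.16 and -1.09 in B, and 0.60 and -0.16 in C. Lower fibrinogen signals were thus seen in B2, and lower CFI in both experiments.

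Interferon-induced genes were mixed. IFIT1 was apart below, with 6.49 and 6.60 in B2 and 6.59 and 6.74 in C2, against 7.08, 7.93 and 8.25, and so was B2M, the light chain of MHC class I (13.44 and 13.33 in B2, 13.32 and 13.57 in C2, against 13.69 to 14.44). OAS3, also an interferon-induced gene, was apart above, at 1.80-fold. The list had 10 of 13 genes lower and a median of -0.39 within B and close to 0 within C. Genes of the cilium axoneme, listed after the values were seen, had a median of -0.60 over 22 genes with 20 lower. STK33, a kinase needed in sperm flagella, had 4.15 and 3.01 in B2 and 2.36 and 4.80 in C2, against 4.80, 5.65 and 6.12, and DNAI7, CIMIP6, CIMAP3 and NME8 were also apart. STK33 and 2 others of these 5 had a mean below 4.78 in B2 and C2 and passed the filter only through the arrays where they were higher, as did 6 of the 22 genes in all, so that neither the median nor the counts of this list carry weight. Of 47 measured genes of the list 22 passed the filter.

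Of the gut and liver epithelial genes that A549 expresses, listed after the values were seen, CLRN3, APOBEC1, PPP1R14D and TSPAN8 were apart below. Of these 4 genes 1, neither CLRN3 nor TSPAN8, passed the filter only through the arrays where it was higher. Its call carries no weight. The list of 16, with that gene in it, had a median of -0.34 (-0.66 within B, -0.06 within C), which carries no weight either. TSPAN8, a tetraspanin, had 10.81 and 11.02 in B2 and 10.65 and 10.74 in C2, against 11.14, 12.18 and 12.54. Mucins and secretory genes had a median of -0.14 with 0 of 15 apart, and surfactant genes one of -0.02 over 7 (0.02 after quantile normalization). Of the identity genes of the line 0 were apart above and 1 below, with keratins KRT8, KRT18 and KRT19 at 0.21, -0.08 and 0.08. EPCAM, an adhesion protein of epithelium, was the exception, with 8.34 and 8.63 in B2 and 9.13 and 8.49 in C2, against 9.14, 9.55 and 9.94. Of 16 measured markers of blood, endothelium, fibroblasts and muscle, 10 lay below the signal filter, PTPRC at a mean of 1.77, CD3E at -0.44 and VWF at 1.63. The mean of the other 6 was 7.01 to 7.46 in B2 and C2 and 6.85 to 7.52 elsewhere.

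**Figure D3:**
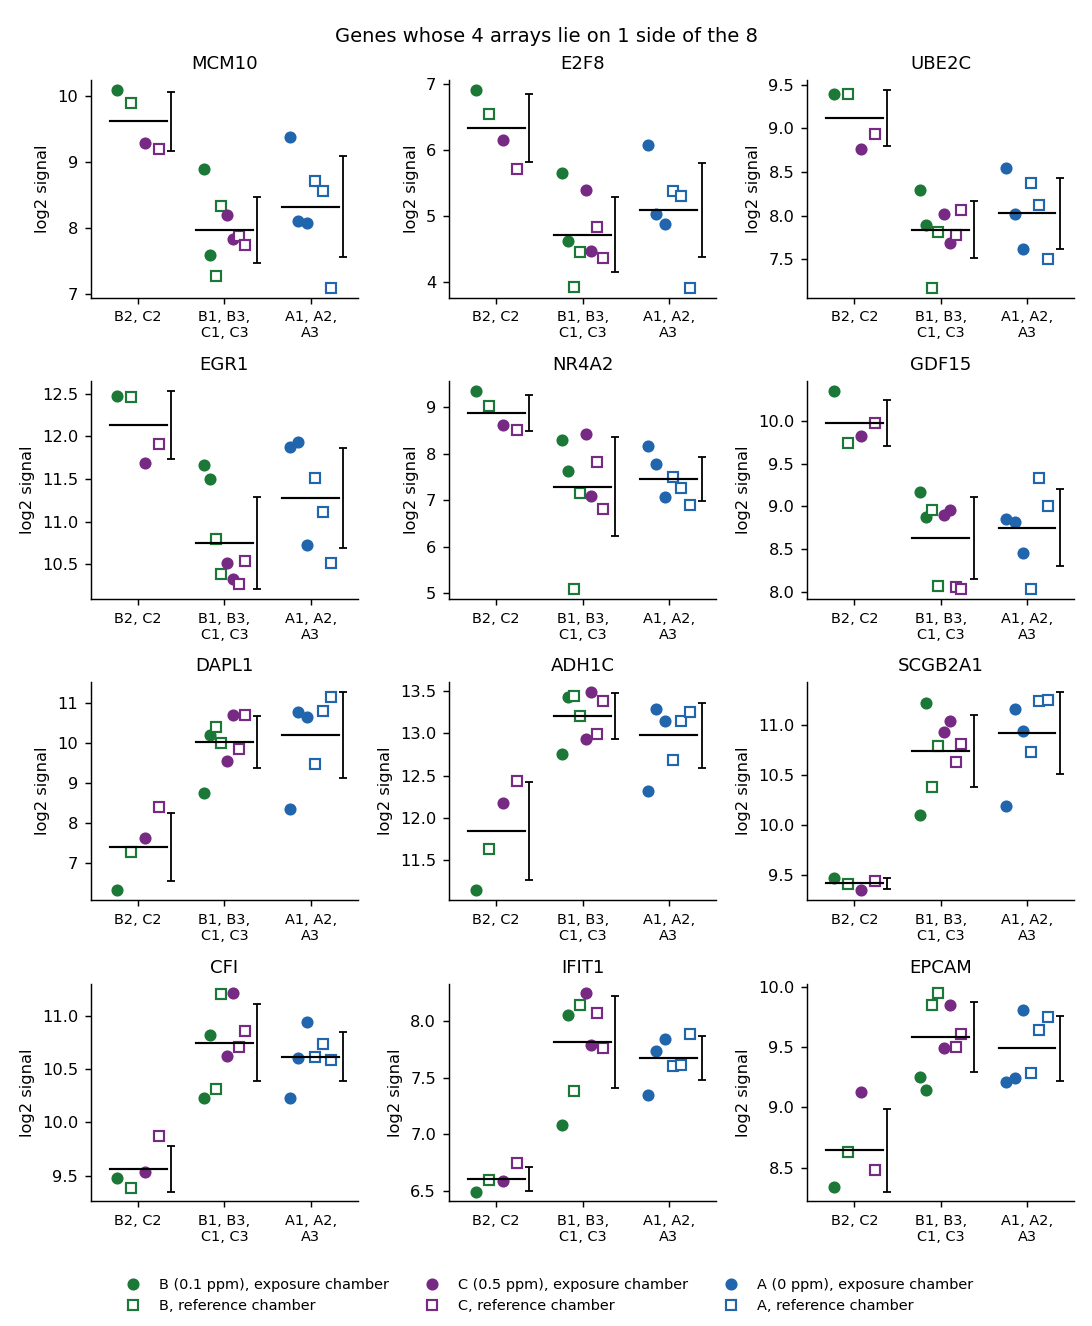
Log2 signal (vertical axes) of 12 genes whose 4 arrays of B2 and C2 lie on 1 side of the 8 of B1, B3, C1 and C3, with the 6 arrays of letter A (horizontal axes); filled circles are exposure chambers, open squares reference chambers, lines are means and bars 1 SD. SCGB2A1 lies at 9.35 to 9.47 in B2 and C2 and at 10.10 to 11.22 on the 8, and DAPL1 is low in A1 exposure too, at 8.34.

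The letter A experiments were outside the contrast. By the markers A1 stood next to C2, and its arrays held intermediate values in several genes. MCM10 was at 9.38 and 8.71 in A1 (exposure chamber first), and between 7.10 and 8.56 on the A2 and A3 arrays. DAPL1 was at 8.34 and 9.48 in A1 and between 10.65 and 11.16 in A2 and A3, and SCGB2A1 at 10.19 and 10.73, and between 10.95 and 11.26. With all 14 other arrays as comparison, 120 genes were apart above, 117 of them among the 262, and 114 below, 113 of them among the 184.

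Across the 12392 genes the differences within B and within C had a Pearson correlation of 0.279 and a Spearman correlation of 0.256. Genes are not independent replicates, and the 2 differences share no array. Outside the cell cycle lists the Pearson correlation was 0.267. It depended on the experiments compared, with 0.519 without B1, 0.031 without B3, 0.433 without C1 and 0.069 without C3. Of promoters of genes apart above, 9.95% of 221 held an E2F word and 14.5% the CHR core, against 5.34% and 9.98% of 10138 promoters of genes compared. Promoters of genes apart below held the CHR core almost as often, in 14.1% of 142, and an E2F word in 4.93%. Among genes apart above outside the cell cycle lists the shares were 7.22% and 12.4% of 194.

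**Figure D4:**
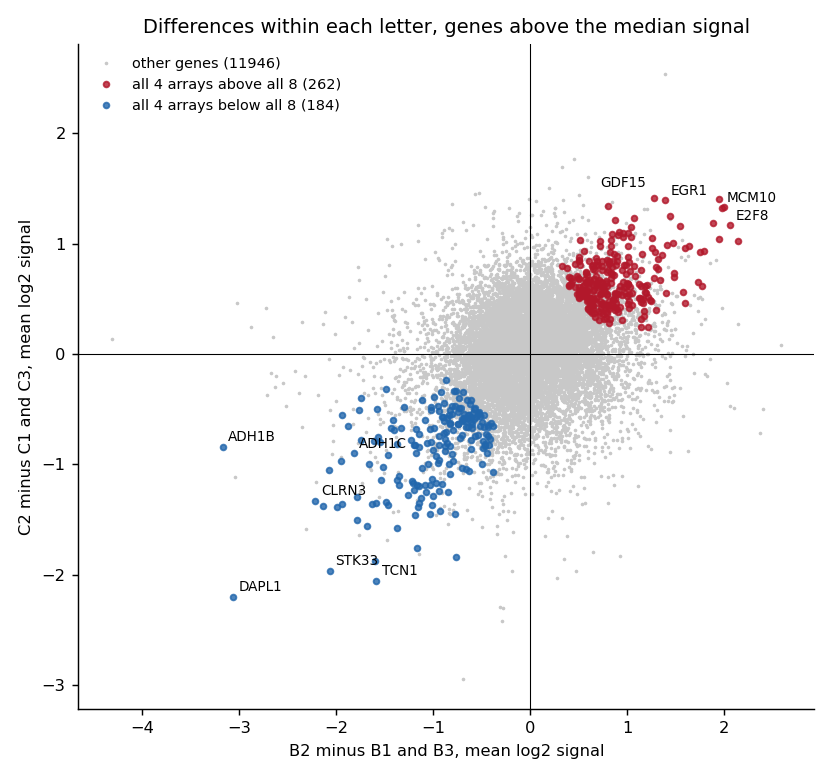
Difference in mean log2 signal of each of 12392 genes within B (B2 minus B1 and B3, horizontal axis) and within C (C2 minus C1 and C3, vertical axis). Genes whose 4 arrays lie above (262, red) or below (184, blue) all 8 others fill the upper right and the lower left by their definition, with DAPL1 at -3.06 and -2.20.

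The chamber difference asked whether the cell cycle signal differed with formaldehyde or chamber, and whether it did so otherwise in B2 and C2. In letters B and C formaldehyde was always in the exposure chamber, so formaldehyde and chamber cannot be told apart. Over the 12 arrays limma found 2374 of 54675 probesets (4.34%) with an unadjusted p under 0.05 between the formaldehyde and the reference chamber, 801 higher (1.47%) and 1573 lower (2.88%), and 0 after Benjamini-Hochberg adjustment (lowest adjusted p = 0.113). After quantile normalization 1107 were higher and 1161 lower. The chamber difference itself differed between B2 and C2 and the other 4 experiments for 1824 probesets (3.34%) at an unadjusted p under 0.05, 963 higher (1.76%) and 861 lower (1.57%) in B2 and C2, and for 0 after adjustment (lowest adjusted p = 0.0571 from limma). Among the 12392 genes above the signal filter the shares past the unadjusted threshold were lower, 190 genes (1.53%) and 55 genes (0.444%). Of the 216 cell cycle genes, a number too small to read much from beside such shares, 0 passed it in either test, with median differences of 0.08 between the chambers and 0.01 for the difference between the sets.

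The mean of the 5 markers was higher in the exposure chamber in 5 of 6 experiments. It was higher by 0.17 in B2 and 0.16 in C2, against 0.96 in B1, 0.23 in B3, 0.14 in C1 and -0.24 in C3. In the A experiments, with 0 ppm in both chambers, the mean was 9.88 in the exposure and 9.48 in the reference chamber of A1. It was 9.37 and 9.46 in A2 and 9.14 and 8.69 in A3. Without formaldehyde the exposure chamber was thus also higher in A1 and A3. The reference chamber of A3 had the lowest mean of all 18 arrays. Its actin 3′ to 5′ difference was 7.57, against 5.88 in the exposure chamber. In B1 the reference chamber had 8.67 and the exposure chamber 5.55, and in A1 they had 4.53 and 5.75. The part of RNA length in these chamber differences was not tested. MCM2 had chamber differences of -0.24 in B2 and -0.01 in C2, and between -0.27 and 0.90 elsewhere. CCNE2 had 0.85 in B2 and 0.94 in C2, and between -0.78 and 2.39 elsewhere, where the 2.39 was B1. In limma the average over the sets was 0.55 with a standard error of 0.52 for CCNE2, 0.39 with 0.25 for BUB1B, 0.31 with 0.29 for CDK1, 0.10 with 0.25 for MCM2 and -0.17 with 0.44 for MKI67 (adjusted p from 0.954 to 0.970). None of the 5 passed the test, which does not show that they did not differ. Set by set, the median difference of the cell cycle lists between B2 and C2 and the other experiments was 0.44 in exposure chambers and 0.42 in reference chambers.

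**Figure D5:**
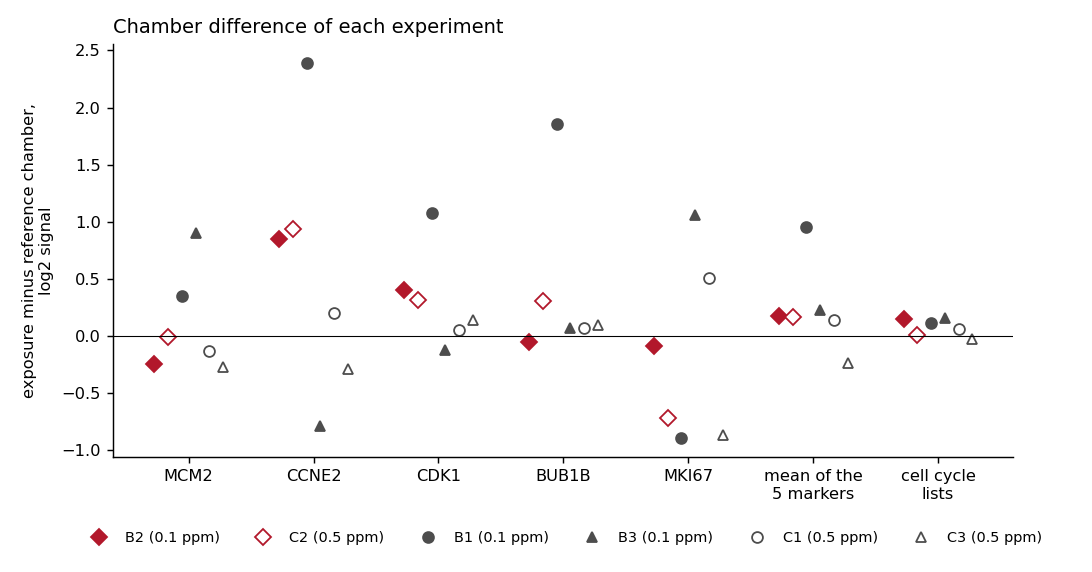
Exposure minus reference chamber difference in log2 signal (vertical axis) of the 5 markers, of their mean and of the mean of the cell cycle lists (horizontal axis), 1 point per experiment, B2 and C2 in red. The means of the markers are 0.17 in B2 and 0.16 in C2, and between -0.24 and 0.96 in the other 4 experiments.

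Of the 531 genes above the filter in the lists fixed with the design, 8 (1.51%) passed the unadjusted threshold between the chambers, close to the 1.53% of all genes compared, and 1 in the comparison of the sets, none of them after adjustment in limma (adjusted p = 0.954 for each of the 8 and 1.000 for the other). SERPINA3, an acute phase antiprotease, had a chamber difference of -0.74 (standard error 0.21), with -0.80 in B2 and C2 and -0.71 in the other experiments. MUC1, a membrane mucin, had -0.57 (standard error 0.22), and TFEB, a regulator of lysosomes, -0.63 (standard error 0.26). GDF15 had 0.54 (standard error 0.21), ADM, a hypoxia-induced peptide, 0.44 (standard error 0.18), and ALDH1L2, the mitochondrial formyltetrahydrofolate dehydrogenase, 0.56 (standard error 0.24). The other 2 were DBP, a clock-controlled factor, and TFF1, a trefoil peptide, with -0.70 and -0.48. CCN2, a matricellular protein and YAP target, had a chamber difference of -1.09 in B2 and C2 and 0.55 in the others, a difference of -1.63 (standard error 0.61).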

How the data were processed

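RNA of 18 A549 cultures was measured on Affymetrix HG-U133 Plus 2.0 arrays, 1 array per culture. The authors amplified the RNA from its 3′ end, labelled it and computed MAS5 signals, which are deposited as an intensity per probeset on a linear scale. In the deposited intensity values every array has the same trimmed mean of 500. The depth of arrays is fixed, and their number limits the precision.

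Log2 signals of 54675 probesets were used. Of these, 41097 name exactly 1 gene in the platform annotation, 1801 several and 11777 none here, with symbols updated through RefSeq. Each of 19775 genes was represented by its probeset of highest mean, and genes above the median mean signal were compared. A gene counted as apart when all 4 arrays lay on 1 side of the 8 and the means differed by at least 0.5. Chamber differences were fitted with limma 3.58.1 in R 4.3.3 on all probesets, as cell means of set by chamber with the study's unadjusted threshold of 0.05 and Benjamini-Hochberg adjusted p beside it. This fit took the 0.1 and 0.5 ppm arrays together and did not pair the chambers of an experiment. Differences between doses and between experiments are therefore part of its standard errors. The fit was tested on simulated data. Nothing says that replicates were separate passages, so p-values measure the spread between these cultures.

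The experiments and the gene lists were chosen with earlier results of these data known, and 8 lists (alcohol dehydrogenases, glutathione S-transferases, other drug metabolism, cilia, secretoglobins, gut and liver, NR4A and KLF, nuclear pore) after their values were seen. Named genes were the 5 markers, the 4 members of each list with the largest difference and the 12 largest differences on each side outside the lists. List members past the unadjusted threshold between chambers were named too. So were the 8 genes outside the cell cycle lists most correlated with the markers. Other genes were named after their values were seen. Of 632 list genes 581 had a probeset of their own and 531 passed the signal filter. Alternatives were quantile normalization, a pseudocount of 32, other probeset rules, other sizes, each letter or chamber alone, and each array or experiment left out. Both chambers of an experiment share a replicate number and, per the methods, ran in parallel, so the number pairs them. Deviations of same-numbered chambers from their group means correlated between 0.009 and 0.490 over probesets. Promoters are from RefSeq (GRCh38.p14), and 10138 of 12392 genes had one. The build behind the probes is not given in the sources used here.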

Additional observations from a re-analysis of the deposited data

Results flagged for a closer look

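Dixon's test for a value far from the rest of its set was run on 98 sets of 4 or 8 arrays, and 12 sets held such a value. Chance gives about 1 in 20 sets. In B2 and C2 the reference chamber of C2 was far above the other 3 arrays in MKI67, at 9.59 against 8.79 to 8.88, and in the mean of the heat shock genes, at 12.75 against 12.55 to 12.57.

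On the 8 arrays the reference chamber of B1 stood out in 7 sets. CDK1 was at 11.4 there and between 12.48 and 12.96 on the others, and CCNE2 at 6.83 and between 8.998 and 9.83. The actin 3′ to 5′ difference was 8.67 and elsewhere 5.23 to 6.75. Mean signals there were 10.68 for the CDK inhibitors and 9.58 for the FOXO genes, both below the others, and 11.31 for ribosome biogenesis and 10.71 for lysosomal genes, both above. Its exposure chamber had the highest mean of the YAP targets, 10.32, and of the nuclear pore genes, 10.38. The exposure chamber of B3 had a mean of 9.79 in the repair genes, against 9.45 to 9.60 on the others.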

How the results depend on the processing

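No gene apart that the naming rule chose changed its sign under any alternative run, nor did the mean of the 5 markers or the median of the cell cycle lists. For genes apart this was fixed in advance wherever arrays were only left out or a pseudocount was added. Arrays that do not overlap keep their order there. Of other lists, 13 medians changed sign under at least 1 alternative, and of other single genes 22 differences, among them CDK1 and CCNE2 within C. The counts of genes apart, 262 above and 184 below, depend on how many arrays must not overlap. They were 120 and 114 against all 14 other arrays, 1124 and 1150 within B, 1230 and 1018 within C, 841 and 677 in exposure chambers alone and 785 and 808 in reference chambers alone. Against the 3 arrays of like actin difference, an alternative chosen after seeing the data, they were 396 and 286. With a minimum difference of 1 they were 41 and 72. With 1 array or experiment left out they lay between 253 and 848 above and between 187 and 882 below. The median difference of the cell cycle lists then lay between 0.29 and 0.56, and the mean of the 5 markers between 0.63 and 0.88. Against the arrays of like actin difference the mean of the 5 markers was lower, at 0.57. After quantile normalization 181 of the 262 and 170 of the 184 genes remained apart, and against the arrays of like actin difference 127 of each.

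Limma's counts at the unadjusted threshold lay between 2178 and 2721 for the chambers and between 1708 and 2491 for the comparison of the sets with 1 array or experiment left out. The count of 0 after adjustment became 2 between the chambers without the reference chamber of B1 and 1 without C3, and 1 in the comparison of the sets without the exposure chamber of B1 or of B3, and it was 0 under the other alternatives. With only probesets above the median signal they were 906 and 336, of fewer probesets tested. With the replicate number as a block, which pairs the chambers of an experiment, they were 2765 and 2250, and the block moved no count by over 1.5 times and gave 0 of the 5 markers an adjusted p under 0.05 in limma. Of the single genes and lists, 181 values moved by more than the spread between arrays and 5165 did not. Signals near the filter and probesets shared by close copies limit single values.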
